A study of Drosophila melanogaster with 107 samples.

Results

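Mushroom body γ neurons that expressed EcR-DN, a dominant-negative ecdysone receptor, were compared directly with γ neurons labelled E75 RNAi at 6 h after puparium formation. The test used 3 libraries of each and no control library in the contrast. All genes with at least 10 normalized reads in 2 or more of these 6 libraries were members, which gave 6914 of the 17050 genes in the table. These belong to a perturbation table of 43 γ neuron libraries, in which EcR-DN, E75 RNAi, Sox14 RNAi and control were sampled before puparium formation, as larvae of the third instar, and 0, 6 and 12 h after it. For each library 1000 cells positive for DsRed fluorescence were sorted from dissociated brains, and polyadenylated RNA was sequenced by MARS-seq, a barcoded method that reads the 3' ends of transcripts. The animals were reared at 25 °C and their sex was left to chance.

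The EcR-DN and E75 RNAi groups are described in the labels by the perturbation only. The control strain is given as y,w/+; UAS-RedStinger/+;71G10/+, in which a red fluorescent nuclear reporter is placed under a γ neuron driver. The labels do not state that libraries A, B and C of a group came from separate animals or separate sorts, so the p-values measure the spread between libraries. At 6 h the control group has 2 libraries and the Sox14 RNAi group 3. Fewer cells with a transcript and less of it per cell cannot be told apart in such bulk samples.

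Ecdysone, the steroid hormone of insect metamorphosis, acts through a heterodimer of the receptors EcR and usp. The receptor switches on early genes, among them Eip75B (known as E75), br and Eip74EF, and these act on later nuclear receptors such as Hr46 and Hr4. In γ neurons this hormone response starts the pruning of larval axons and dendrites, and the transcription factor Sox14 and the actin-oxidizing enzyme Mical act downstream of EcR in it. E75 is itself a nuclear receptor that binds heme and is known to hold back the activity of Hr46.

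The 6 libraries had totals of 1959555 to 2346335 normalized reads and 7050 to 8141 detected genes. Correlations of log2 values across genes were 0.855 to 0.877 within EcR-DN, 0.827 to 0.843 within E75 RNAi and 0.745 to 0.784 between the groups. All 14 γ neuron markers were detected in both groups. Libraries B and C labelled E75 RNAi stood apart from library A in a few transcripts. CG10853 had 15, 688 and 657 normalized reads in libraries A, B and C labelled E75 RNAi, Eig71Ec, an ecdysone-induced gene known from the salivary gland, had 5, 568 and 771, and CG4151 had 4, 521 and 728. In EcR-DN libraries these 3 genes were at 1 read or less. Results that rest on libraries B and C are given with and without them. The lone remaining library is then taken to vary like the other groups. With a lone library a call can be lost through the smaller group alone, also where the difference hardly changes.

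The transcripts of the targeted genes did not all follow their labels. Eip75B had 6500, 7346 and 5982 normalized reads in EcR-DN libraries, against 18185, 19423 and 14794 in libraries labelled E75 RNAi, and it had 6318 and 8483 in control libraries. The 3 libraries labelled E75 RNAi thus lay above both control libraries for the gene that the RNAi names, and above all EcR-DN libraries. The log2 difference, EcR-DN minus E75 RNAi, was -1.40 ± 0.22 SE (limma adjusted p = 1.15e-05, n = 3 libraries each). Sox14 RNAi libraries were above control at 6 h too, at 15015, 13879 and 15576 reads of Eip75B. At the third instar the libraries labelled E75 RNAi, at 22294, 19280 and 14881, were below the 25956 and 33983 of control. A transcript level read at the 3' end does not measure the protein, and each direction below refers to libraries by their label.

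EcR had 2610, 2674 and 2148 normalized reads in EcR-DN libraries, against 1235, 1107 and 1028 in libraries labelled E75 RNAi and 308 and 347 in control libraries. All EcR-DN libraries were above all others, and those labelled E75 RNAi were above control (1.14 ± 0.19, limma adjusted p = 1.78e-05 between the first 2 groups). Reads of a transgene for the dominant-negative receptor could be counted in EcR, and their part in this result was not tested. Sox14 had 1722, 1488 and 1512 normalized reads in EcR-DN libraries, against 4163, 3808 and 3521 in libraries labelled E75 RNAi and 471 and 503 in control libraries. It was lower in EcR-DN than in E75 RNAi without overlap (-1.28 ± 0.23, limma adjusted p = 6.33e-05), and both perturbed groups were above control.

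**Figure D1:**
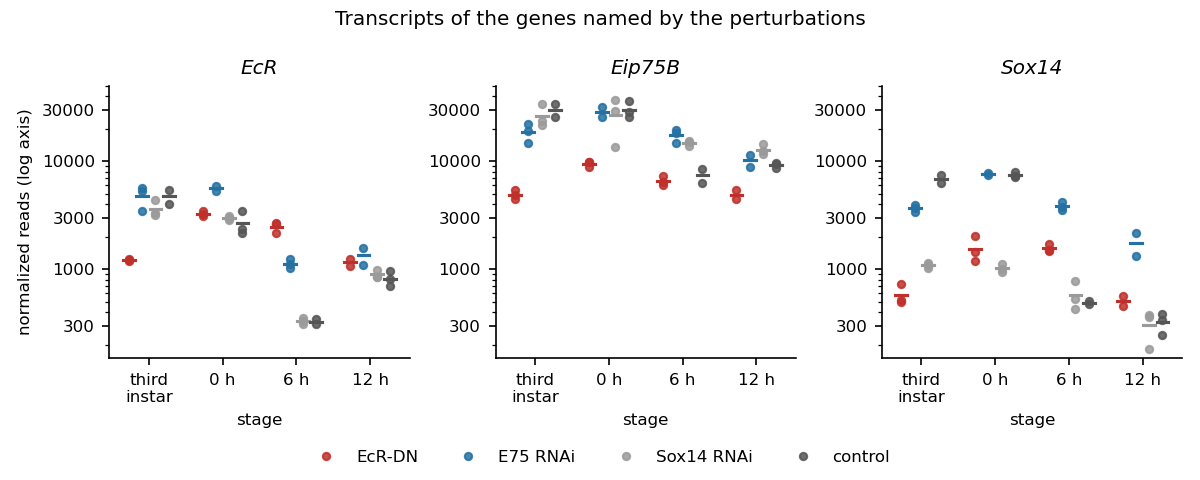
Normalized reads (log axis) of EcR, Eip75B and Sox14 in every library of the 4 stages, with points for libraries and short lines for group means of EcR-DN, E75 RNAi, Sox14 RNAi and control. At 6 h the Eip75B points of EcR-DN lie between 5982 and 7346, below the 14794 to 19423 of the libraries labelled E75 RNAi and beside the 6318 and 8483 of control.

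Between EcR-DN and E75 RNAi, 1224 of 6914 genes were called at a Benjamini-Hochberg adjusted p under 0.05 in limma, 17.7% of those tested. Of these, 674 genes were higher in EcR-DN (9.75%) and 550 were lower (7.95%). Fold changes are differences between means of log2(value + 1). The added 1 understates changes of weakly expressed genes, while values of 0 in some libraries of a group can overstate them. The difference was more than 2-fold for 581 of the higher and 438 of the lower genes, and more than 8-fold for 226 of the higher ones. The groups' libraries did not overlap for 615 of the 674 higher and 514 of the 550 lower genes, against 30.3% of all tested genes. Over all tested genes the median log2 difference was 0.08. Without libraries B and C labelled E75 RNAi, 377 genes were called higher and 219 lower, and 523 of the 1224 calls were kept in the same direction.

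**Figure D2:**
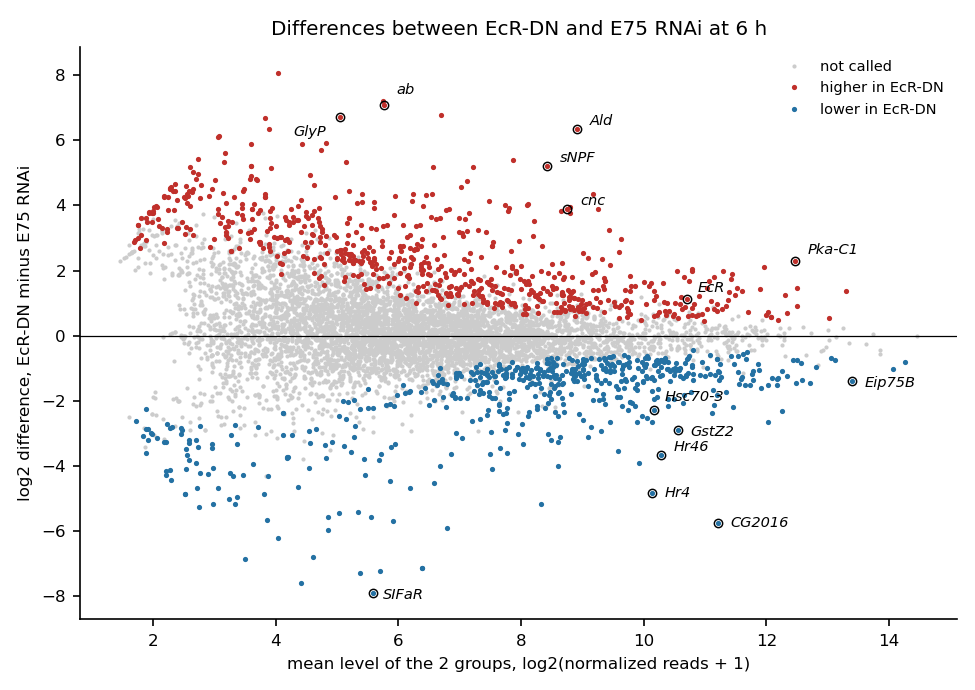
Log2 difference, EcR-DN minus E75 RNAi at 6 h, of the 6914 tested genes against the mean level of both groups in log2(normalized reads + 1); red points are the 674 genes called higher in EcR-DN, blue points the 550 called lower and grey points those not called. Circled genes include Ald at 6.33, sNPF at 5.20 and Pka-C1 at 2.30 above the zero line and Hr4 at -4.81 and CG2016 at -5.75 below it.

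The neuropeptide gene sNPF, which encodes short neuropeptide F of Kenyon cells, had the smallest p of the comparison. It had 2206, 1991 and 1967 normalized reads in EcR-DN libraries, against 53, 76 and 41 in libraries labelled E75 RNAi. Every EcR-DN library was more than 20 times above every library labelled E75 RNAi, and the 109 and 183 reads of control were close to the second group (5.20 ± 0.28, limma adjusted p = 3.23e-17).

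The transcription factor gene ab, which encodes the BTB zinc finger protein Abrupt, had 535, 688 and 568 normalized reads in EcR-DN libraries, against 5, 1 and 6 in libraries labelled E75 RNAi. The difference was 7.08 ± 0.62 (limma adjusted p = 2.5e-11), and control, with 51 and 95 reads, lay between the groups. Hr38, an activity-induced nuclear receptor of the NR4A type, had 327, 596 and 617 reads in EcR-DN libraries, against 12, 0 and 2 in those labelled E75 RNAi (7.19 ± 0.89, limma adjusted p = 1.03e-07). The receptor gene hec had 822, 579 and 966 reads in EcR-DN libraries, against 26, 12 and 0 (6.78 ± 0.77). For both genes all EcR-DN libraries were far above the rest, control included.

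CG1648 had 290, 242 and 269 normalized reads in EcR-DN libraries and was listed at 0 in all 3 libraries labelled E75 RNAi (limma adjusted p = 1.2e-11). The tetraspanin gene Tsp42Eo, at 83, 82 and 47 reads, and snmRNA:158, at 59, 86 and 61 reads, were also listed at 0 in all libraries labelled E75 RNAi. In the reference annotation snmRNA:158, there named sncRNA:158, shares exon sequence on the same strand with Msp300, so both may draw on 1 signal. In all, 40 of the 674 higher genes were listed at 0 there, against 73 of the 6914 tested genes. Genes at 0 there could pass the filter only through the EcR-DN libraries. The T-box factor gene bi had 281, 76 and 96 reads in EcR-DN libraries, against 1, 0 and 0 (6.67 ± 0.89), with library A of EcR-DN the highest. The remaining large increases were in CG45071 (6.35 ± 0.98), the glutamate dehydrogenase gene Gdh (5.91 ± 0.77), the proline oxidase gene slgA (5.89 ± 0.75), pxb (5.89 ± 1.09) and CG44245 (5.69 ± 0.84). In the reference annotation CG45071 shares exon sequence on the same strand with Ctps, and CG44245 with Gyg, so reads may be split or shared between these neighbours.

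Genes of glycolysis and glycogen breakdown, which turn sugar into pyruvate and lactate, were higher in EcR-DN almost throughout. Of 17 tested members, 14 were higher, 0 were lower and 3 were not called. The called share was 82.4%, against 17.7% of all tested genes, and the list median was 3.05 against 0.08. The 3 that were not called were the trehalase gene Treh, the glycogen synthase gene GlyS and the sugar transporter gene Glut1. Aldolase, encoded by Ald, had 4421, 3881 and 4310 normalized reads in EcR-DN libraries, against 80, 32 and 52 in libraries labelled E75 RNAi (6.33 ± 0.61, limma adjusted p = 3.3e-10). All EcR-DN libraries were more than 40 times above the others, and control had 136 and 185 reads.

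The glycogen phosphorylase gene GlyP had 373, 332 and 271 reads in EcR-DN libraries, against 4, 1 and 2 in libraries labelled E75 RNAi (6.70 ± 0.49, limma adjusted p = 1.48e-13). The triose phosphate isomerase gene Tpi had 1599, 1282 and 1697 reads against 108, 98 and 112 (3.83 ± 0.35). Gapdh2, a glyceraldehyde phosphate dehydrogenase gene, had 2390, 1792 and 2472 reads against 312, 295 and 241 (2.96 ± 0.22). In each of these 3 genes the groups were clearly apart.

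The enzymes on both sides of aldolase were higher as well. Upstream of aldolase, Hex-A for hexokinase was higher by 2.12 ± 0.69, Pgi for the sugar phosphate isomerase by 4.76 ± 0.57 and Pfk for phosphofructokinase by 4.35 ± 0.55. Downstream of it, Gapdh1 (1.94 ± 0.30), Pgk for phosphoglycerate kinase (2.75 ± 0.31), Pglym78 for phosphoglycerate mutase (4.02 ± 0.39), Eno for enolase (1.61 ± 0.20) and PyK for pyruvate kinase (4.04 ± 0.40) were higher. The lactate dehydrogenase gene ImpL3 was at 173, 98 and 159 reads in EcR-DN libraries, against 4, 3 and 39 in libraries labelled E75 RNAi (3.92 ± 0.78). Library C labelled E75 RNAi was the highest of its group for Pgi, Pfk, ImpL3 and Hex-A, at 102, 50, 39 and 151 reads, and still below every EcR-DN library. Without libraries B and C labelled E75 RNAi, 13 of the 17 members were called higher, and Hex-A and Pgm were not among them. The Hex-A call was also lost when any 1 library other than E75 RNAi library C was left out, and its adjusted p in limma reached 0.143 over all alternatives.

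**Figure D3:**
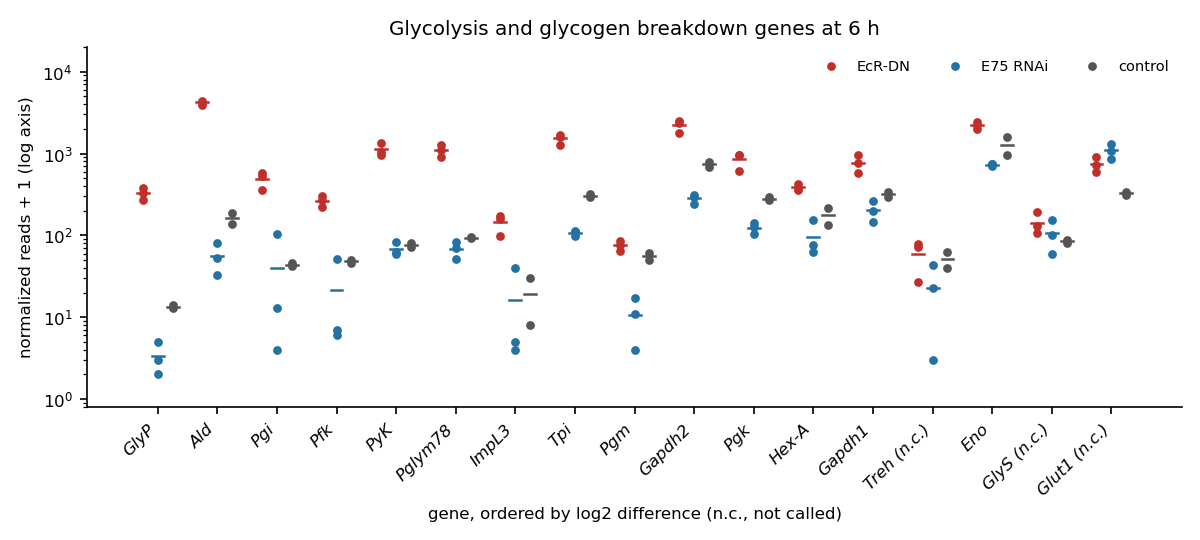
Normalized reads + 1 (log axis) of the 17 tested genes of glycolysis and glycogen breakdown in every 6 h library of EcR-DN, E75 RNAi and control, ordered by the log2 difference; points are libraries and short lines group means. For the 14 called genes, from GlyP at 6.70 to Eno at 1.61, all 3 EcR-DN points lie above all 3 points of the libraries labelled E75 RNAi.

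Genes that mark γ neurons and serve learning were next among the higher lists. Of 14 γ neuron markers, 8 were higher and 0 lower (median 0.86), a called share of 57.1% against 17.7% of all tested genes. A wider Kenyon cell list, which covers identity and memory genes and shares members with the markers, had 39 tested genes, of which 18 were higher and 4 lower (median 0.68). Pka-C1, the catalytic subunit of protein kinase A, had 11410, 15668 and 10822 normalized reads in EcR-DN libraries, against 2239, 2744 and 2617 in libraries labelled E75 RNAi, and 4759 and 8112 in control (2.30 ± 0.22, limma adjusted p = 2.7e-10). The 2 perturbed groups lay on opposite sides of control. The vesicular transporter gene prt of Kenyon cells had 769, 890 and 906 reads in EcR-DN libraries, against 49, 47 and 61 (4.01 ± 0.42), close to the 82 and 48 reads of control.

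Genes of neuronal temporal identity were split. The BTB factor gene chinmo had 2747, 2667 and 1681 normalized reads in EcR-DN libraries, against 147, 206 and 123 in libraries labelled E75 RNAi, with control at 1089 and 2306 (3.89 ± 0.62, limma adjusted p = 1.11e-05). Of the 2 groups compared, the libraries labelled E75 RNAi were the ones apart from control here. Syp, an RNA-binding protein that acts against chinmo, had 1322, 1484 and 1010 reads in EcR-DN libraries, against 3368, 3206 and 2283 (-1.21 ± 0.25, limma adjusted p = 0.00055). Imp, the RNA-binding protein of early-born neurons, was called higher by 0.72 ± 0.25, but 1 library of each group overlapped, and without libraries B and C labelled E75 RNAi the difference was 0.29 (limma adjusted p = 0.699). The homeodomain factor gene pros (1.25 ± 0.26), ey of the Pax6 type (0.64 ± 0.18), the RNA-binding protein gene mub (0.91 ± 0.23, lost without those libraries) and 14-3-3zeta (1.48 ± 0.28) were higher. The ey call was lost without E75 RNAi library A, where the difference was 0.43 (limma adjusted p = 0.123), and with only the compared libraries in the fit. The Imp call was lost in 6 of 15 alternatives, among them without EcR-DN library A or B and without E75 RNAi library B or C.

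Genes of synaptic vesicles and release were called higher in EcR-DN more often than lower. Their called share was 47.6%, against 17.7% of all tested genes (9.75% higher and 7.95% lower). Of 42 tested, 18 were higher, 2 were lower and 22 were not called (median 0.74), and 13 and 0 without libraries B and C labelled E75 RNAi. The synaptotagmin gene Syt1, the calcium sensor of release, had 1974, 2410 and 1445 normalized reads in EcR-DN libraries, against 499, 599 and 816 in libraries labelled E75 RNAi (1.60 ± 0.24, limma adjusted p = 2.68e-06). The complexin gene cpx had 5378, 6699 and 3092 reads against 943, 1147 and 1675 (1.98 ± 0.33). The groups did not overlap for either gene. IA-2, which encodes a dense-core vesicle phosphatase-like protein, had 9446, 7905 and 7358 reads against 2194, 1939 and 1626 (2.10 ± 0.27), with control lower still at 725 and 823. Sap47 (1.67 ± 0.20), nSyb for synaptobrevin (0.84 ± 0.28) and Rab3 of vesicle priming (1.32 ± 0.31) were higher. The nSyb call was lost in 5 of 15 alternatives, among them without EcR-DN library A or B and without E75 RNAi library A or B (adjusted p up to 0.224 in limma). Higher too was comt for the SNARE recycling factor NSF (3.18 ± 0.66), which did not pass without libraries B and C. The synapsin gene Syn went the other way, with 922, 809 and 758 reads in EcR-DN libraries, against 1516, 1991 and 1775 (-1.08 ± 0.24). Its call was lost without those libraries (limma adjusted p = 0.117).

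Ion channel genes and transmitter receptor genes moved both ways. Of 41 tested channel genes and related subunits, 7 were higher and 5 lower (median 0.17), and 4 and 1 without libraries B and C labelled E75 RNAi. Over all tested genes 9.75% were higher and 7.95% lower. The count of lower channel genes was 2 or 3 whichever of the 6 libraries was left out. The sodium leak channel subunits unc79 (2.24 ± 0.31) and unc80 (3.31 ± 0.69) were both higher, as was nrv3, a subunit of the sodium pump, at 1198, 2975 and 1229 normalized reads in EcR-DN libraries, against 151, 85 and 91 (3.94 ± 0.59, limma adjusted p = 2.98e-06). Ca-alpha1D, a voltage-gated calcium channel gene, was lower (-1.31 ± 0.30). Of 36 tested receptor genes, 8 were higher and 7 lower (median -0.17). The muscarinic receptor gene mAChR-B had 184, 346 and 281 reads in EcR-DN libraries, against 23, 3 and 33 in libraries labelled E75 RNAi (4.15 ± 0.70, limma adjusted p = 2.58e-05).

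DopEcR, a receptor for dopamine and ecdysone, was at 226, 247 and 208 normalized reads in EcR-DN libraries, against 26, 2 and 19 in libraries labelled E75 RNAi (4.28 ± 0.54, limma adjusted p = 1.66e-07). The glutamate receptor genes GluRIA and GluRIB were lower. GluRIA had 128, 189 and 180 reads in EcR-DN libraries, against 1030, 922 and 766 (-2.45 ± 0.36, limma adjusted p = 2.57e-06), and the difference in GluRIB was -2.15 ± 0.49. The octopamine receptor gene Oamb (-1.78 ± 0.34) and the dopamine receptor gene Dop2R (-1.17 ± 0.22) were lower too, while Dop1R2 was higher (1.10 ± 0.22).

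Several nuclear receptor genes of the ecdysone cascade were lower in EcR-DN. The ecdysone response list had a called share of 46.9%, against 17.7% of all tested genes (7.95% lower and 9.75% higher). Of 32 tested genes of the list, 10 were lower and 5 higher (median -0.81), and 7 and 5 without libraries B and C labelled E75 RNAi. The nuclear receptor gene Hr4 had 95, 458 and 156 normalized reads in EcR-DN libraries, against 5553, 5154 and 5364 in libraries labelled E75 RNAi, with control at 637 and 943 (-4.81 ± 0.44, limma adjusted p = 6.55e-11). EcR-DN lay below control and the other group far above it. Hr46, the target of E75 named above, had 358, 349 and 336 reads in EcR-DN libraries, against 4765, 4352 and 4192, with control at 212 and 508 (-3.67 ± 0.28, limma adjusted p = 5.09e-13). EcR-DN libraries lay within the range of control for Hr46, and the libraries labelled E75 RNAi were more than 8 times above it.

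Eip63F-1, an ecdysone-induced gene for a calcium-binding protein, had 7, 28 and 9 normalized reads in EcR-DN libraries, against 880, 762 and 730 in libraries labelled E75 RNAi (-5.90 ± 0.97, limma adjusted p = 1.63e-05). Eip78C, a nuclear receptor gene of the E75 type (-2.26 ± 0.54), Eip74EF of the ETS family (-1.16 ± 0.28), the receptor gene Hr51, which is needed for γ axon regrowth (-1.09 ± 0.20), and vri (-0.82 ± 0.22) were lower. The calls of Eip78C, vri and Eip63E were lost without libraries B and C labelled E75 RNAi (limma adjusted p = 0.0593, 0.0519 and 0.14). Among early genes br went the other way, at 5241, 4999 and 4300 reads in EcR-DN libraries, against 1774, 1680 and 1848, with both groups above the 229 and 515 of control (1.45 ± 0.28, limma adjusted p = 0.000209).

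Of the members not called, ftz-f1, the competence factor gene of the prepupa, had 225, 176 and 148 normalized reads in EcR-DN libraries, against 72, 40 and 94 in libraries labelled E75 RNAi (limma adjusted p = 0.051). Eip93F had 495, 288 and 259 reads against 143, 209 and 236, and control was at 1814 and 2210. Both perturbed groups were far below control for it, and the difference between them did not pass (limma adjusted p = 0.147). The receptor partner usp had 369, 340 and 359 reads against 425, 575 and 300 (limma adjusted p = 0.599).

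Outside the cascade, SIFaR and CG2016 were among the largest decreases. SIFaR, the receptor for the neuropeptide SIFamide, had 1, 5 and 1 normalized reads in EcR-DN libraries, against 593, 747 and 733 in libraries labelled E75 RNAi, and 0 and 38 in control (-7.90 ± 1.10, limma adjusted p = 9.18e-07). CG2016 had 392, 227 and 364 reads in EcR-DN libraries, against 17409, 16786 and 17458, and 235 and 193 in control (-5.75 ± 0.73, limma adjusted p = 1.61e-07). For both genes the libraries labelled E75 RNAi were far above EcR-DN and control. The neuropeptide gene Capa was listed at 0 in all EcR-DN libraries and had 61, 120 and 204 reads in those labelled E75 RNAi (limma adjusted p = 2.9e-07). In all, 24 of the 550 lower genes were listed at 0 in every EcR-DN library, against 28 of the 6914 tested genes. Such genes could pass the filter only through the libraries labelled E75 RNAi.

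CG42675 (-7.29 ± 1.01), CG31036 (-7.22 ± 1.03), CG6310 (-6.19 ± 1.40), CG7991 (-5.69 ± 0.997) and mira (-5.66 ± 1.12), which encodes an adaptor protein of dividing neuroblasts, were also among the largest decreases. The genes inaF-B and inaF-D had the same value in every library, 0, 40 and 0 normalized reads in EcR-DN and 527, 508 and 420 in E75 RNAi, and their exons overlap in the reference annotation, so that they count as 1 signal. CG10853, Eig71Ec and CG4151 rested on libraries B and C labelled E75 RNAi. Against library A alone their adjusted p-values were 0.135, 0.369 and 0.688 in limma. CG32762 had 0, 209 and 231 reads in libraries labelled E75 RNAi and CG33998 had 1, 174 and 129, against at most 1 in EcR-DN, and these genes, named after their values were seen, followed the same libraries.

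GstZ2, which encodes a glutathione transferase of the zeta class, had the smallest p among the lower genes. It had 559, 610 and 483 normalized reads in EcR-DN libraries, against 4666, 3818 and 3832 in libraries labelled E75 RNAi and 133 and 117 in control (-2.90 ± 0.20, limma adjusted p = 4.56e-14). Both perturbed groups were above control and did not overlap each other.

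Regulators of axon and dendrite remodeling were more often lower than higher. Of 51 tested, 10 were lower and 5 higher (median -0.38), against 7.95% and 9.75% of all tested genes, and 7 and 2 without libraries B and C labelled E75 RNAi. Mical had 900, 757 and 570 normalized reads in EcR-DN libraries, against 2736, 2672 and 3087 in libraries labelled E75 RNAi and 491 and 427 in control (-1.95 ± 0.25, limma adjusted p = 1.37e-07). Like Sox14, it was above control in both perturbed groups and highest in those labelled E75 RNAi. The adhesion gene Fas2, whose protein marks γ axons, had 4328, 6034 and 4764 reads in EcR-DN libraries, against 2250, 2042 and 1524, with control at 4814 and 5522 (1.38 ± 0.22, limma adjusted p = 9.4e-06). The microtubule-severing gene kat-60L1 (2.81 ± 0.49) and the TGF-beta signal transducer gene Smox (0.77 ± 0.19) were higher, and the calls of both were lost without libraries B and C, that of Smox also without library C alone.

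Genes of autophagy and cell death had a called share of 34.4%, against 17.7% of all tested genes (7.95% lower and 9.75% higher). They included the caspases that are known to act in dendrite pruning of other fly neurons. Of 32 tested, 9 were lower and 2 higher (median -0.29), and 3 and 0 without libraries B and C labelled E75 RNAi. The effector caspase gene Dcp-1 had 178, 273 and 198 normalized reads in EcR-DN libraries, against 538, 649 and 601 in libraries labelled E75 RNAi and 454 and 597 in control (-1.48 ± 0.27, limma adjusted p = 9.95e-05). The initiator caspase gene Dronc had 53, 47 and 63 reads against 211, 183 and 208, and 188 and 186 in control (-1.87 ± 0.48, limma adjusted p = 0.00459). Of the 2 groups compared, EcR-DN was the one apart from control in both genes. Drice (-1.92 ± 0.47) and the caspase activator gene Dark (-1.06 ± 0.35) were lower, and so was Diap1, which encodes a caspase inhibitor (-0.80 ± 0.19). Of the autophagy genes, Atg7 (-2.07 ± 0.45) and Atg3 (-1.11 ± 0.27), which encode enzymes of the ubiquitin-like Atg8 system, were lower. The calls of Dronc, Drice, Dark and Atg3 were lost without libraries B and C, where their adjusted p in limma was 0.0799, 0.0983, 0.397 and 0.0996 at differences of the same sign. The calls of Drice and Dark were also lost without EcR-DN library A, and that of Dark without E75 RNAi library B or C.

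Axon guidance and cell adhesion genes were called in both directions, 8 higher and 13 lower of 72 tested (median -0.29), and 6 and 7 without libraries B and C labelled E75 RNAi. The homophilic receptor gene Dscam1 had 671, 842 and 432 normalized reads in EcR-DN libraries, against 2683, 3051 and 2727 in libraries labelled E75 RNAi (-2.17 ± 0.30, limma adjusted p = 8.26e-07), and its relative Dscam3 was lower too (-2.27 ± 0.36). The receptor phosphatase gene Lar (-1.17 ± 0.21), the neuroligin gene Nlg3 (-0.98 ± 0.29, lost without them or without EcR-DN library A) and beat-Ia of the beaten path family (-2.80 ± 0.55) were lower. Of 24 tested Dpr and DIP genes, whose surface proteins bind one another across synaptic partners, 6 were higher and 6 lower (median -0.30), and 3 and 1 without those libraries. The called share was 29.2% for guidance and adhesion genes and 50% for Dpr and DIP genes, against 17.7% of all tested genes. The count of lower Dpr and DIP genes was 3 without any 1 library other than EcR-DN library C. DIP-alpha had 176, 128 and 237 reads in EcR-DN libraries, against 22, 11 and 3 (4.09 ± 0.65), though it shares exon sequence on the same strand with CG2875. The genes dpr9 (3.83 ± 0.53) and dpr1 (3.17 ± 0.40) were higher and dpr17 was lower, at 220, 217 and 192 reads against 1225, 1122 and 1445 (-2.58 ± 0.28, limma adjusted p = 6.1e-09).

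Of 64 tested cytoskeleton genes 9 were higher and 9 lower (median -0.09), and 4 and 2 without libraries B and C labelled E75 RNAi, against 9.75% higher and 7.95% lower of all tested genes. Act5C, a cytoplasmic actin gene, had 6077, 4097 and 5950 normalized reads in EcR-DN libraries, against 1576, 1464 and 1285 in libraries labelled E75 RNAi, with control at 5034 and 4801 (1.88 ± 0.19, limma adjusted p = 6.13e-10). The other cytoplasmic actin gene, Act42A, was lower (-0.97 ± 0.18). Msp300, which encodes a nesprin that ties nuclei to actin, had 2773, 2583 and 2426 reads against 109, 106 and 171 (4.36 ± 0.38, limma adjusted p = 2.1e-11), and its exons overlap snmRNA:158. The tubulin genes betaTub56D (1.74 ± 0.24) and alphaTub84B (0.70 ± 0.22) and the stathmin gene stai (1.16 ± 0.25) were higher, with the calls of alphaTub84B and stai lost without libraries B and C, and that of alphaTub84B also without EcR-DN library A or C or E75 RNAi library C, and Jupiter, a microtubule-associated protein gene, was lower (-1.46 ± 0.20).

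Genes of membrane traffic and protein folding were called in both directions. Of 26 tested Rab GTPase genes 4 were higher and 5 lower (median -0.17), and 3 and 2 without libraries B and C labelled E75 RNAi. The called share of Rab genes was 34.6%, against 17.7% of all tested genes. The count of lower Rab genes was 3 when EcR-DN library A or C, or E75 RNAi library A or C, was left out. Rab27 (3.92 ± 0.50) and Rab26 (2.39 ± 0.34), of secretory and synaptic vesicles, were higher, and Rab8 of exocytic carriers was lower (-1.35 ± 0.25). Of 16 tested subunits of the vacuolar ATPase, the proton pump of vesicles and lysosomes, 6 were higher and 0 lower (median 0.67), among them Vha14-1 (2.08 ± 0.40) and Vha36-1 (1.53 ± 0.30). Hsc70-3, the BiP chaperone of the endoplasmic reticulum, had 528, 546 and 485 normalized reads in EcR-DN libraries, against 1894, 2681 and 3103 in libraries labelled E75 RNAi and 1090 and 1343 in control (-2.27 ± 0.18, limma adjusted p = 2.42e-12). Gp93, another chaperone of that compartment, had 434, 323 and 371 reads against 1916, 2662 and 2530 (-2.65 ± 0.24, limma adjusted p = 6.17e-11). Xbp1, a factor of the unfolded protein response, was lower as well (-1.40 ± 0.22). In all 3 genes EcR-DN was below control and the libraries labelled E75 RNAi above it.

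On the wider list of heat shock and stress genes, 10 of 32 tested were higher and 5 lower (median 0.43), and 3 and 3 without libraries B and C labelled E75 RNAi. Without library C alone 6 were higher. Hsp67Bc, a small heat shock protein gene, had 2049, 2435 and 2094 normalized reads in EcR-DN libraries, against 9503, 10699 and 12642 in libraries labelled E75 RNAi and 10346 and 11040 in control (-2.31 ± 0.32, limma adjusted p = 7.02e-07). EcR-DN was below control there, and so were the Sox14 RNAi libraries, at 3968, 4808 and 3765 reads. Of the insulin and TOR list, 4 of 24 tested genes were higher and 1 lower (median -0.02), a called share of 20.8% against 17.7% of all tested genes. Without E75 RNAi library B 2 were higher. The growth regulator gene Myc had 3864, 3860 and 2631 reads in EcR-DN libraries, against 1210, 903 and 591, with control at 216 and 145 (1.97 ± 0.29, limma adjusted p = 2.81e-06). Pdk1, a kinase gene of the same pathway, was lower (-1.03 ± 0.24). Of 18 tested TGF-beta and BMP genes 2 were higher and 1 lower, a called share of 16.7% against 17.7% of all tested genes. The calls of these genes, Smox, cv-2 and Med, were lost without libraries B and C labelled E75 RNAi. That of cv-2, which was at 0 in most libraries of the other stages, was lost in 7 of 14 alternatives. Of 22 tested neuropeptide and receptor genes 3 were higher and 3 lower. The called share was 27.3% for them and 8.7% for mitochondrial ribosomal protein genes, against 17.7% of all tested genes. Cytoplasmic ribosomal protein genes gave 1 call in 81, RpS29 (1.79 ± 0.29), and mitochondrial ones gave 6 higher and 0 lower in 69, and 3 and 0 without libraries B and C labelled E75 RNAi.

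**Figure D4:**
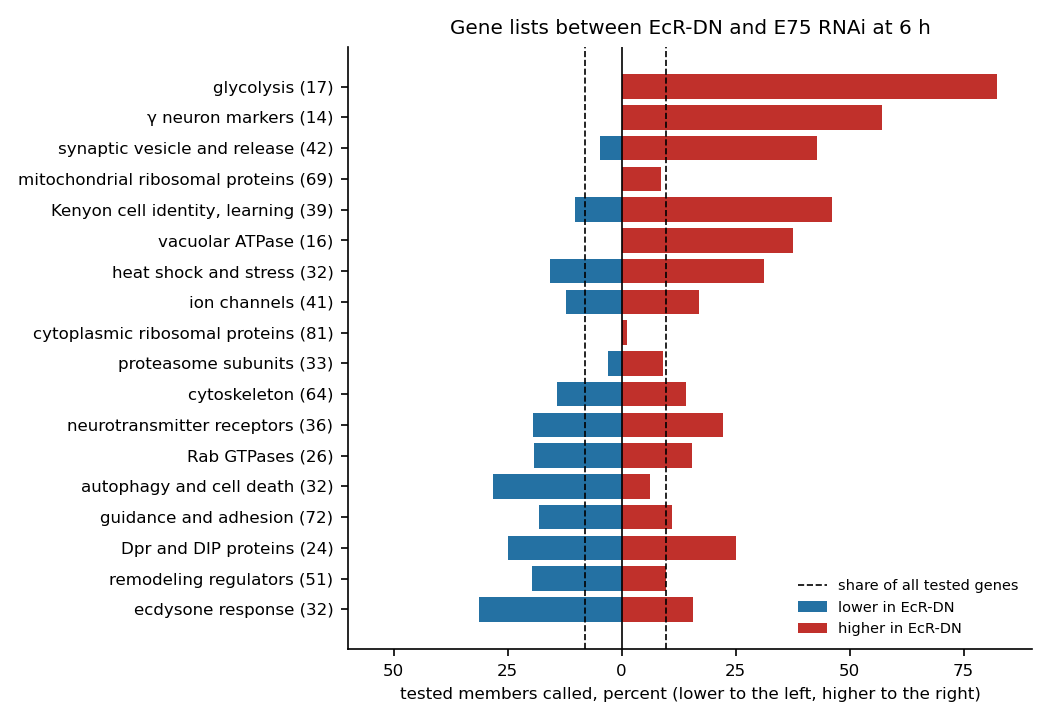
Percent of the tested members of 18 gene lists called higher in EcR-DN (red, to the right) and lower (blue, to the left) than in E75 RNAi at 6 h, with the number tested in parentheses and lists ordered by their median log2 difference; dashed lines mark the 9.75% and 7.95% of all tested genes. The glycolysis bar, 14 of 17 members, reaches farthest to the right, and the ecdysone response bar, 10 of 32, farthest to the left.

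At the other stages the same contrast called 416 genes at the third instar (6.02%), where each group has 3 libraries. It called 1446 genes at 0 h (20.9%), from 3 EcR-DN and 2 E75 RNAi libraries, and 294 at 12 h (4.25%), from 2 libraries of each. The share called higher was 1.88% in larvae, 13.1% at 0 h and 2.59% at 12 h, and the share called lower was 4.14%, 7.80% and 1.66% at these stages. With only the compared libraries in the fit the counts were 827 at 0 h and 13 at 12 h. Of the 674 genes higher at 6 h, 49 were higher and 30 lower at the third instar, 275 higher and 12 lower at 0 h, and 123 higher and 1 lower at 12 h. Of the 550 lower genes, 8 were higher and 119 lower at the third instar, 9 higher and 247 lower at 0 h, and 3 higher and 93 lower at 12 h. A set of 564 genes passed at 6 h only, and 58 passed in the same direction at all 4 stages. GstZ2, SIFaR, CG2016, Hr4, Eip63F-1, Sox14 and Eip75B were lower at every stage, and Gapdh2, Tpi, Pgk, Eno, RpS29 and DIP-alpha were higher at every stage.

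The size of the difference itself was tested between 6 h and the third instar, and 429 genes passed (6.20%), 281 with a more positive (4.06%) and 148 with a more negative difference at 6 h (2.14%). The factor gene cnc, the fly counterpart of Nrf2 in the response to oxidative stress, had the smallest p. It had 1684, 1597 and 1542 normalized reads in EcR-DN libraries at 6 h, against 176, 87 and 83 in libraries labelled E75 RNAi (3.88 ± 0.22, limma adjusted p = 8.59e-17). At the third instar it was lower in EcR-DN (-2.07, limma adjusted p = 7.7e-09), so that the difference changed by 5.94 ± 0.31 between the stages. EcR itself changed sides in the same way, with a difference of -1.95 at the third instar and 1.14 at 6 h. CG31760 at 1373, 1901 and 1529 reads against 90, 187 and 90 (3.78 ± 0.23) and CG18812 at 441, 432 and 390 against 39, 45 and 50 (3.21 ± 0.25) differed between the stages as well. In the libraries labelled E75 RNAi both genes were far below the control libraries, which had 862 and 1082 reads of CG31760 and 256 and 407 of CG18812.

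For glycolysis 4 of 17 members were higher and 0 lower at the third instar, 9 higher and 1 lower at 0 h, 14 higher at 6 h and 13 higher at 12 h. The median difference was 1.06, 2.003, 3.05 and 2.58 at these stages, and for 11 members the difference at 6 h was above that at the third instar by the test. The level of Ald itself was higher in larvae than at 6 h in both groups, with 9406, 10394 and 9563 normalized reads in EcR-DN larvae and 5937, 5246 and 5692 in larvae labelled E75 RNAi. Proteasome subunit genes took another course. Of 33 tested, 29 were lower in EcR-DN at the third instar (median -1.13) and 29 at 0 h (median -1.19), while at 6 h 3 were higher and 1 lower (median -0.06). The called share of proteasome genes at 6 h was 12.1%, below the 17.7% of all tested genes. The change of the difference from the third instar to 6 h passed for 18 of the 33, all toward a more positive value. Prosalpha3 had 642, 600 and 812 reads in EcR-DN libraries at 6 h, against 732, 935 and 665 in libraries labelled E75 RNAi (-0.18 ± 0.19, limma adjusted p = 0.596), and differed by -1.27 at the third instar (limma adjusted p = 1.16e-05). The 4 calls at 6 h were lost without libraries B and C labelled E75 RNAi, where a lone library remained. The differences of Prosbeta7, Prosbeta4, Prosbeta6 and Rpn13 were then -0.83, 0.98, 0.90 and 0.79. With all libraries they were -0.74, 0.99, 0.85 and 0.78. Of 15 alternatives, 5, 5, 6 and 7 lost the calls of these genes.

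**Figure D5:**
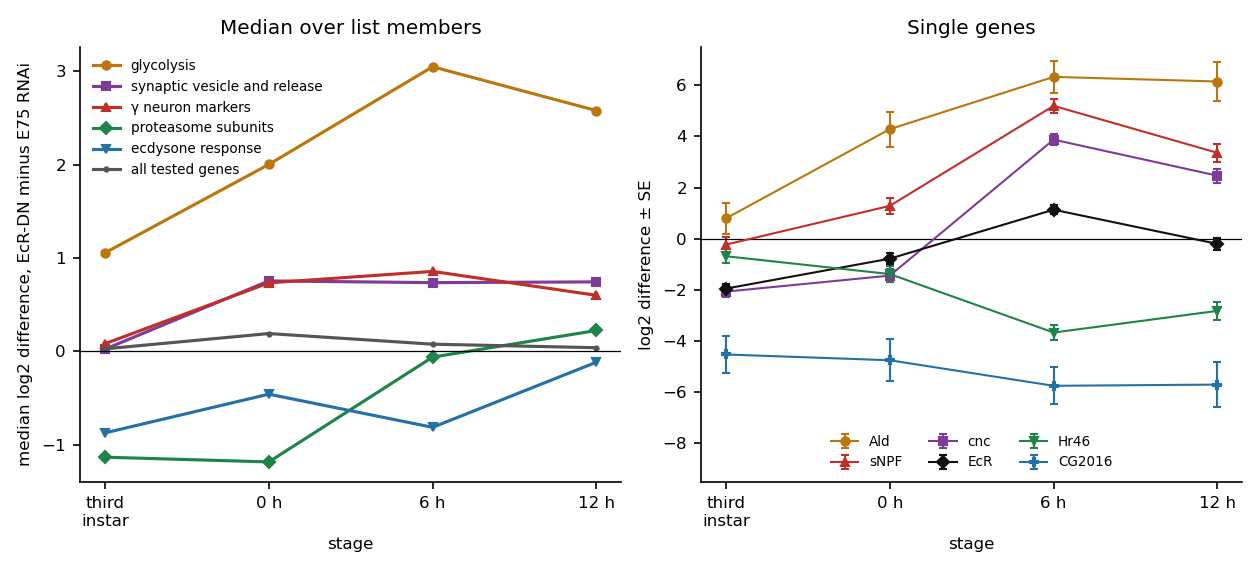
Left, median log2 difference, EcR-DN minus E75 RNAi, over the tested members of 5 lists and over all 6914 genes at each stage; right, the same difference ± SE for 6 single genes. The median glycolysis difference is 1.06 at the third instar, 3.05 at 6 h and 2.58 at 12 h, the proteasome median is -1.13 at the third instar and -0.06 at 6 h, and cnc and EcR cross the zero line while CG2016 stays below -4.

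A separate developmental table of untreated γ neurons, scaled on its own, gave the change from the third instar to 6 h. Of 6787 genes tested there, 543 rose (8.0%) and 640 fell (9.43%). Of the genes higher in EcR-DN, 670 were tested there, of which 265 fell (39.6%) and 23 rose (3.43%). Of the genes lower in EcR-DN, 516 were tested there, of which 164 rose (31.8%) and 42 fell (8.14%). In that table sNPF fell by 5.62, hec fell by 6.71, prt fell by 6.86 and Ald fell by 5.04 on the log2 scale, while Eip63F-1 rose by 4.44, CG7991 by 4.55 and Hsp67Bc by 3.35. Of 17 glycolysis genes 13 fell and 0 rose in that table, and of 42 synaptic genes 23 fell and 2 rose.

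Control libraries at 6 h were nearer to EcR-DN for 342 of the 674 higher genes and nearer to those labelled E75 RNAi for 332. Among the 550 lower genes they were nearer to EcR-DN for 317 and to E75 RNAi for 233, and over all tested genes for 3626 and 3288. For 14 of 17 glycolysis genes control was nearer to E75 RNAi, and for 18 of 24 Dpr and DIP genes nearer to EcR-DN.

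The summed glial and hemocyte markers were lower in every EcR-DN library than in every library labelled E75 RNAi. Summed over 26 glial markers, EcR-DN libraries had 428 to 636 normalized reads and libraries labelled E75 RNAi 861 to 1191, of which the sodium pump subunit gene nrv2 made up most, and without nrv2 the sums were 143 to 315 and 235 to 353. Summed over 20 hemocyte markers they were 3923 to 4748 and 6540 to 9551, nearly all from the ferritin gene Fer2LCH (-0.75 ± 0.23), and 146 to 225 and 366 to 444 without it, with 10 and 12 markers at 0 in all libraries of the group. The scavenger receptor gene crq of hemocytes was at 58, 50 and 86 reads in EcR-DN libraries, against 162, 135 and 261 (-1.49 ± 0.50, limma adjusted p = 0.0308). The calls of nrv2, Fer2LCH and crq were all lost without libraries B and C labelled E75 RNAi and in several of the fits that left out 1 library. Fat body markers summed to 275 to 466 and 174 to 391, and photoreceptor markers to 35 to 72 and 38 to 92. On the photoreceptor list trp was listed at 0 in EcR-DN and had 9, 23 and 30 reads in libraries labelled E75 RNAi. The phospholipase C gene norpA was called higher, at 23, 24 and 25 reads in EcR-DN libraries, against 39, 0 and 0 (limma adjusted p = 0.0498), but the groups overlapped and the call was lost in 11 of 14 alternatives, with the sign turned without libraries B and C. Neuroblast and cell cycle genes summed to 11140 to 16052 reads in EcR-DN and 11807 to 14886 in libraries labelled E75 RNAi. Nearly all of these reads came from brat and from pros, which neurons also express. Without brat the sums were 7524 to 9629 and 3639 to 4796, mostly from pros. Among 7 tested, pros was called higher and mira lower. Genes of cuticle and trachea summed to 1254 to 1964 and 2129 to 2531, with 0 of 18 called. Among 21 salivary gland and prepupal genes, a list added after the data were seen, the sums were 0 to 22 in EcR-DN libraries and 6, 646 and 853 in libraries A, B and C labelled E75 RNAi. The part of such transcripts in the other differences was not tested.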

How the data were processed

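γ neurons were profiled by MARS-seq, with 1000 sorted cells per library. The deposited values are a score rather than counts: per the file headers the authors normalized the reads of each gene, and the values are whole numbers. The normalization method, the handling of molecular barcodes, the strand of counting and the genome build are not stated in the sources used here. Depth in molecules is therefore unknown, and overlapping genes may share reads. Per the submitters' processing notes, bcl2fastq, HISAT 0.1.5 and HOMER were used.

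From the deposited score values, log2(value + 1) was fitted with limma 3.58.1 in R 4.3.3, with a mean for each of the 16 groups of the 43 libraries, a trend in the prior variance and Benjamini-Hochberg adjustment over all 6914 genes with at least 10 in 2 of the 6 libraries. A gene was called at an adjusted p under 0.05, two-sided. The developmental table, with 64 libraries in 17 groups, was fitted separately with a minimum of 10 in 3 libraries. List symbols were matched directly (814), by pattern (410) or by synonym (32), and 17 were unmatched. Gene names and overlaps came from the Drosophila reference annotation, from which no coordinates were taken.

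Genes named by rule were EcR, Eip75B and Sox14, the 14 largest increases and 14 largest decreases with a mean of at least 50 and no overlap of libraries, up to 4 called members of each list by smallest p, the smallest p in each direction and the 6 smallest p of the difference between 6 h and the third instar. A further 42 genes were named after their values were seen, among them the other glycolytic enzymes, br, Eip74EF, Eip78C, Hr51, vri, the caspase and autophagy genes beside Dcp-1, Atg7, Diap1 and Drice, chinmo, Imp, Syp, Gp93, cpx, comt, Syn, GluRIB and Oamb. Members and lists were chosen with earlier results of these data known. Alternatives covered the pseudocount, the filter on low values, the scaling, the libraries in the fit, the moderation of variances, a block for the library letter and leaving out each library.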

Additional observations from a re-analysis of the deposited data

Results flagged for a closer look

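The difference between EcR-DN and E75 RNAi was itself different at 6 h and at the third instar for 429 genes, by a limma test of the interaction. Over all tested genes this was 6.20%. Of the 148 named genes 87 passed that test, and 9 were called in opposite directions at the 2 stages. Most named genes were chosen by their difference at 6 h, which is part of the test, and 6 by the test itself. The share among named genes therefore follows in part from that choice. Each value that follows is the log2 difference at 6 h minus that at the third instar, with 3 libraries in each group. The change was 5.94 for cnc, 5.43 for sNPF, 4.13 for CG31760 and 4.41 for CG18812. It was 3.09 for EcR and 2.93 for Pka-C1. Of these 6 genes cnc, CG18812 and EcR were called in opposite directions at the 2 stages. The other 6 called in opposite directions were dpr1 at 4.62, Myc at 3.06, the potassium channel gene Task6 at 3.03, Dop1R2 at 2.71, Prosbeta4 at 2.21 and Rpn13 at 2.03. In all of these the difference was more positive at 6 h. The calls of Task6, Prosbeta4 and Rpn13 at 6 h were lost without libraries B and C labelled E75 RNAi. Their differences at 6 h were then 0.62, 0.98 and 0.79, against 0.72, 0.99 and 0.78 with all libraries. Over all tested genes, 30 were higher at 6 h and lower at the third instar, and 8 were lower at 6 h and higher at the third instar.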

How the results depend on the processing

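No gene called at 6 h was called in the opposite direction under any alternative run. The counts at 6 h ran from 508 to 746 higher and from 495 to 598 lower over the pseudocount, filter, scaling, variance and fit alternatives, and from 532 to 649 higher and 429 to 454 lower when 1 library was left out. With only the compared libraries in the fit 508 genes were higher and 565 lower at 6 h, so that lower calls outnumbered higher ones (47.3% higher, against 55.1%), and 827 genes were called at 0 h and 13 at 12 h, where fewer libraries estimate the spread. Leaving out 1 library gave 262 to 348 calls at the third instar, 935 to 1311 at 0 h, 130 to 229 at 12 h and 321 to 422 for the change between the third instar and 6 h. Without libraries B and C labelled E75 RNAi, an alternative chosen after seeing the data, 377 genes were higher and 219 lower, 36 of the 148 named genes lost their call, and norpA (-0.68) and CG32762 (0.33) changed sign without passing. With a replicate block for the library letter 668 genes were higher and 541 lower. Deviations of libraries with the same letter correlated at 0.0069, 0.027 and 0.011. The labels do not state what the letter stands for, and values over all genes cannot exclude a shared sort or day. The unknown depth limits what can be said of genes near 0.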
